A study of Mus musculus with 9 samples.

Results

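Collecting duct principal cells were picked from the kidneys of 9 mice by the UMIs (unique molecular identifiers, counted RNA molecules) that each cell held. Kept cells had a minimum of 1000 UMIs and 500 detected genes, and no more than 15% of their UMIs came from mitochondrially encoded genes. A principal cell then needed at least 5 UMIs summed over Aqp2, Aqp3 and Fxyd4, of which at least 2 from Aqp2, and this sum had to exceed that of Calb1, Slc8a1, Trpv5 and Slc12a3, genes of the distal convoluted and connecting tubule. At most 1 UMI was allowed over Umod, Slc12a1, Atp6v1g3, Kdr, C1qa and C1qb, which mark the loop of Henle, intercalated cells, endothelium and macrophages. The rule selected 1277 of 196925 kept cells, or 0.648%. These 13 genes and the mitochondrial share therefore chose the cells, and their values are given only as a description.

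All mice were male C57BL/6, 6 weeks old at the start, with 3 sequenced per group. Control mice received saline. AKI-CKD mice received 4 weekly intraperitoneal doses of cisplatin at 8 mg/kg, a model of acute kidney injury that passes into chronic kidney disease. AKI-CKD + EGT mice received the same cisplatin and, from before the first dose, ergothioneine (EGT), a sulfur-containing amino acid derivative, at 0.5 mg/mL in drinking water, and kidneys of all groups were taken at week 8. No group received EGT without cisplatin.

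Principal cells line the collecting duct beside the intercalated cells and set the final water and salt content of urine. Vasopressin binds its receptor Avpr2 on these cells, raises cAMP and brings the water channel Aqp2 to the apical membrane, while Aqp3 and Aqp4 let water leave on the basolateral side. Aldosterone acts through the mineralocorticoid receptor Nr3c2 to raise sodium entry through the epithelial sodium channel ENaC (Scnn1a, Scnn1b and Scnn1g) and potassium secretion through ROMK (Kcnj1), and the enzyme Hsd11b2 keeps cortisol and corticosterone away from that receptor.

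The label was checked on genes the rule had not used. Scnn1g was detected in 46.4% of the principal cells against 0.621% of the 169115 other kept cells that passed a proximal tubule gate. After every cell was thinned to 1000 UMIs the shares were 21.5% and 0.236%. Principal cells that also passed this gate, 818 of 1277, were counted only as principal cells. Hsd11b2 was detected in 90.5% against 2.47%, Avpr2 in 44.9% against 0.293% and Gata3, a transcription factor of the distal nephron, in 41.9% against 0.956%. The median depth was 2823 UMIs in principal cells and 2577 to 2984 UMIs per mouse in the proximal tubule gate. Kap, an abundant RNA of the mouse proximal tubule, was detected in 100% of principal cells, so that RNA of other cells was present in the droplets. Lrp2, a gene of the proximal tubule gate, was detected in 54.0% of principal cells.

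Among genes at 50 CPM (the count divided by all UMIs of the class and scaled to 1e+06) or more in principal cells, the 20 with the highest ratio to all other kept cells were led by Aqp4 at 256 against 0.752 CPM, followed by Mcoln3 and Aqp2. Aqp2 and Fxyd4 are genes of the rule. The 20 also held Lcn2, Ptger1 (a prostaglandin E2 receptor), Muc20, Avpr2, Fxyd4, Hsd11b2, Kcne1 and Wnt4, and further Sbspon, Col26a1, Mgat4c, Ache, Gprc5b, Frmpd4, Tmem150c, Pde8b and Kif26b. Muc20 was at 191 CPM in a gate of type A intercalated cells as well, against 197 CPM in principal cells. Cells of a connecting tubule gate, 2434 in number, held Scnn1g at 60.9 CPM against 246 CPM in principal cells, Avpr2 at 12.8 against 248 CPM and Hsd11b2 at 322 against 3186 CPM. The reverse order was seen for Klk1, with 49371 CPM in the connecting tubule gate against 6790 CPM in principal cells. These ratios describe cells chosen on expression and carry no test.

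The promoters of 2 genes are shown because Aqp2 defines the cells and Klk1 had the largest change that passed the test between the groups. The sequences are the 250 bases before the start of each gene in the RefSeq promoter table of build GRCm38.p6, matched by symbol, whereas the deposited counts are labelled GRCm39. Aqp2 lies on the plus strand at chr15:99578806-99579055 and Klk1 on the plus strand at chr7:44225110-44225359. Capitals mark TTATCT, the reverse complement of AGATAA, a motif that GATA factors bind, which began 202 bases before the start of Aqp2.
Aqp2: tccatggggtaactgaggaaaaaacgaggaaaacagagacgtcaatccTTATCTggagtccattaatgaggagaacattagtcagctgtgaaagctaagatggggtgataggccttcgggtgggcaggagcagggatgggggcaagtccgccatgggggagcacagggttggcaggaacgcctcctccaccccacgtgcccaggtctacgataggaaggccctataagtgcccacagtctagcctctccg
Klk1: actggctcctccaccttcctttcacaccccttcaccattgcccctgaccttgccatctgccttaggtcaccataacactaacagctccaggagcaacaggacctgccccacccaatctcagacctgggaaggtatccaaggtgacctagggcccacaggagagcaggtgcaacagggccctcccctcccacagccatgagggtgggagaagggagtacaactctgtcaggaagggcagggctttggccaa
On either strand, AGATAA was found in 10.3% of 27025 promoters and in 2 of the 14 leading genes that matched the table, Aqp2 and Mgat4c. The cAMP response motif TGACGTCA was found in 1.62% of promoters and the AP-1 motif TGANTCA in 6.87%, and neither in any of the 14. The motifs were searched without mismatches and do not overlap each other in these 2 windows, where Klk1 held none of them.

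Depth was similar among the 9 libraries, with 70106200 to 101526000 UMIs each, and the summed principal cells held 304559 to 703036 UMIs per mouse. Of the 1277 cells, 818 (64.1%) also passed the proximal tubule gate, from 45.4% in AKI-CKD 2 to 79.2% in Control 1. The median mitochondrial share was 6.53, 4.20 and 1.15% in Control, 2.32, 1.29 and 1.37% in AKI-CKD and 2.67, 4.36 and 6.70% in AKI-CKD + EGT. It was thus higher in every AKI-CKD + EGT mouse than in every AKI-CKD mouse, and Control reached from 1.15 to 6.53% by itself. Markers of immune, endothelial and stromal cells were low: the summed macrophage list lay at 12.2 to 127 CPM, the endothelial list at 14.6 to 103 CPM, the lymphocyte list at 4.65 to 37.7 CPM and the stromal list at 0 to 121 CPM. Low macrophage and endothelial levels were partly set by the rule, which limited UMIs of C1qa, C1qb and Kdr. Adgre1, Ms4a1, Col3a1 and Lum were at 0 in all mice, as were 6 of 7 urothelial markers.

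Principal cells made up 0.626, 0.608 and 0.493% of kept cells in Control, 0.752, 0.674 and 0.292% in AKI-CKD and 0.750, 0.919 and 0.835% in AKI-CKD + EGT. The means were 0.576 ± 0.0722% (SD, n = 3), 0.572 ± 0.246% and 0.835 ± 0.0846%. The 3 EGT-treated mice lay above all Control mice, whereas AKI-CKD covered a wide range because of AKI-CKD 3, which gave only 68 cells. With kept cells outside the proximal tubule gate as the denominator, the order was not the same, at 4.06, 4.75 and 5.00% in Control, 8.71, 4.88 and 4.47% in AKI-CKD and 5.62, 5.50 and 2.32% in AKI-CKD + EGT. The shares depend on the genes of the rule and on how many proximal tubule cells were captured, and are given as a description only. Fewer principal cells in the kidney and fewer that survived dissociation cannot be told apart.

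Just inside the rule stood 64 cells with a sum of exactly 5 UMIs over Aqp2, Aqp3 and Fxyd4, in which Hsd11b2 was at 263 CPM and Kap at 55461 CPM. Just outside stood 97 cells with a sum of 4, with Hsd11b2 at 240 CPM and Kap at 75178 CPM. Both were far from the 3186 CPM of Hsd11b2 over all principal cells. At the other limits, 31 cells held exactly 2 UMIs of Aqp2 and 17 cells only 1, and 290 cells held the 1 UMI allowed of the excluding genes while 97 were left out with 2. In 26 cells left out because the sum over the connecting tubule genes equalled the first, Hsd11b2 was at 3357 CPM and Scnn1g at 197 CPM, beside 3186 and 246 CPM in principal cells.

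Within the principal cells, UMIs of Calb1, Slc8a1, Trpv5 and Slc12a3 varied widely: 414 cells held none, 415 held 1 or 2, and 448 held 3 or more. The last class made up 27.1, 35.3 and 28.1% of principal cells in Control, 56.9, 40.8 and 33.8% in AKI-CKD and 36.4, 20 and 37.5% in AKI-CKD + EGT. Its share was highest in AKI-CKD 1 and AKI-CKD 2, and AKI-CKD 3 lay within the range of Control. Scnn1g lay at 182 to 342 CPM over the 9 mice in cells with 0 to 2 such UMIs and at 185 to 462 CPM in cells with 3 or more. Aqp4 was lower with 3 or more in every mouse, at 9.98 to 353 CPM against 121 to 702 CPM.

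**Figure D1:**
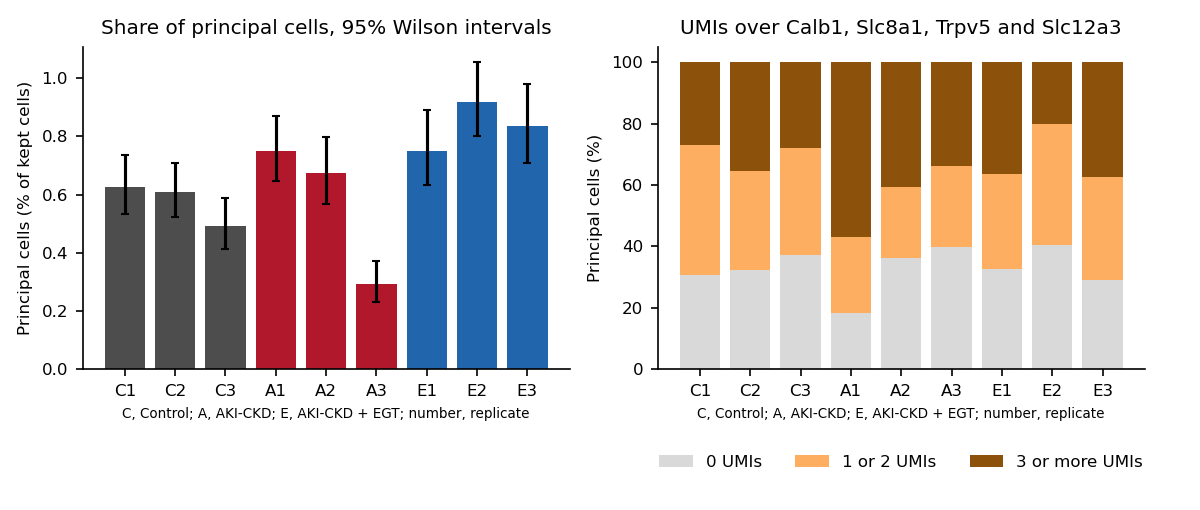
Left, principal cells as a percent of kept cells in each mouse, with 95% Wilson intervals that cover counting error only. Right, the percent of principal cells with 0, with 1 or 2 and with 3 or more UMIs over Calb1, Slc8a1, Trpv5 and Slc12a3. AKI-CKD 3 stands low at 0.292% on the left, and AKI-CKD 1 has the largest share of cells with 3 or more UMIs on the right, 56.9%.

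To find which genes differed between AKI-CKD and Control in principal cells, UMIs were summed per mouse and 7473 genes were tested with edgeR's quasi-likelihood test and Benjamini-Hochberg adjustment. Klk1 and Clu rose in AKI-CKD, and no other gene passed an adjusted p under 0.05, so that 2 genes or 0.0268% were called. At an unadjusted p under 0.05 there were 386 genes higher (5.17%) and 528 lower (7.07%), together 914 genes (12.2%). The groups did not overlap for 1339 genes (17.9%), of which AKI-CKD was the higher for 681 (9.11%) and the lower for 658 (8.81%). DESeq2 called 20 genes on the same sums, 7 higher, both of these among them, and 13 lower, after its own filter left adjusted p-values for 2545 genes. In the following, CPM are relative to TMM-scaled library sizes.

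Clu, which encodes the secreted chaperone clusterin of injured tubules, stood at 376, 390 and 292 CPM in Control mice, at 1291, 1231 and 1328 CPM in AKI-CKD and at 695, 274 and 344 CPM in AKI-CKD + EGT. The AKI-CKD mice were close together and far above both other groups. The log2 fold change of AKI-CKD against Control was 1.86 with an SE of 0.28 (edgeR adjusted p = 0.0109). The 5 cells with most Clu held 23.6 to 49.6% of its UMIs in Control and 28.7 to 49.9% in AKI-CKD, and 29.8 to 39.6% against 56.9 to 65.5% of cells held a UMI. Without the cells that also passed the proximal tubule gate the log2 fold change was 0.94 (edgeR adjusted p = 0.237).

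Klk1, tissue kallikrein, a protease that releases kinins and is made mainly in the connecting tubule, stood at 1647, 2191 and 1002 CPM in Control. In AKI-CKD it reached 20972, 10824 and 9360 CPM, and in AKI-CKD + EGT 10948, 2048 and 4962 CPM. All AKI-CKD mice exceeded all Control mice, and AKI-CKD + EGT spread from the Control level to that of AKI-CKD. The log2 fold change of AKI-CKD against Control was 3.09 with an SE of 0.48 (edgeR adjusted p = 0.0109). Klk1 belongs to a family of near-identical kallikrein genes, among which the counting could split reads. A UMI of Klk1 was held by 66.0, 61.1 and 45.5% of the cells in Control and 66.7, 69.2 and 47.1% in AKI-CKD, with a median of 1, 1 and 0 UMIs per cell in both groups. Its UMIs were concentrated in few cells: 64 cells held 100 or more, namely 1, 3 and 1 in Control, 25, 12 and 8 in AKI-CKD and 9, 3 and 2 in AKI-CKD + EGT. Of these 64 cells, 57 held 3 or more UMIs of the connecting and distal convoluted tubule genes.

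Both calls rested on small margins. Without Control 1 the edgeR adjusted p of both genes was 0.0957 and without Control 3 it was 0.121, and without AKI-CKD 1 that of Klk1 was 0.0541, with log2 fold changes of 1.75 to 1.92 for Clu and 2.65 to 3.11 for Klk1 in these fits. The classes by connecting tubule UMIs were added after the data were seen and were cut on 4 genes of the rule, while Klk1 and Clu are not among its 13. Their shares of cells differed among mice, so that the fits within them are no separate support for either call. Among cells with 0 to 2 such UMIs alone, Clu had a log2 fold change of 1.49 and Klk1 of 2.64 (edgeR adjusted p = 0.320 for both). Among cells with 3 or more, Clu was at 1.50 (edgeR adjusted p = 0.0448) and Klk1 at 2.56 (edgeR adjusted p = 0.0551). Klk1 with 3 or more lay at 3155 to 4850 CPM in Control against 15145 to 29248 CPM in AKI-CKD, and with 0 to 2 at 176 to 543 CPM against 536 to 4960 CPM. Klk1 is itself in the marker list of the distal convoluted and connecting tubule, whose 9 genes summed to 5520 to 13845 CPM in Control mice, 23884 to 47990 CPM in AKI-CKD and 5656 to 22585 CPM in AKI-CKD + EGT, with none at 0 in all mice. Of the 47990 CPM of AKI-CKD 1, Klk1 alone gave 20972 CPM. Only 3 of the 9 genes were tested, Klk1 among them. All 3 were higher at an unadjusted p under 0.05, with a median log2 fold change of 1.59. With EGT against AKI-CKD all 3 were lower at that threshold, with a median of -1.20. For S100g, a connecting tubule gene, AKI-CKD against Control gave 2.04 with 0 to 2 connecting tubule UMIs (edgeR adjusted p = 0.0693). With 3 or more it gave 1.02 (edgeR adjusted p = 0.355). The part that connecting tubule RNA or cells had in the changes of Klk1 and Clu was not tested beyond these values.

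**Figure D2:**
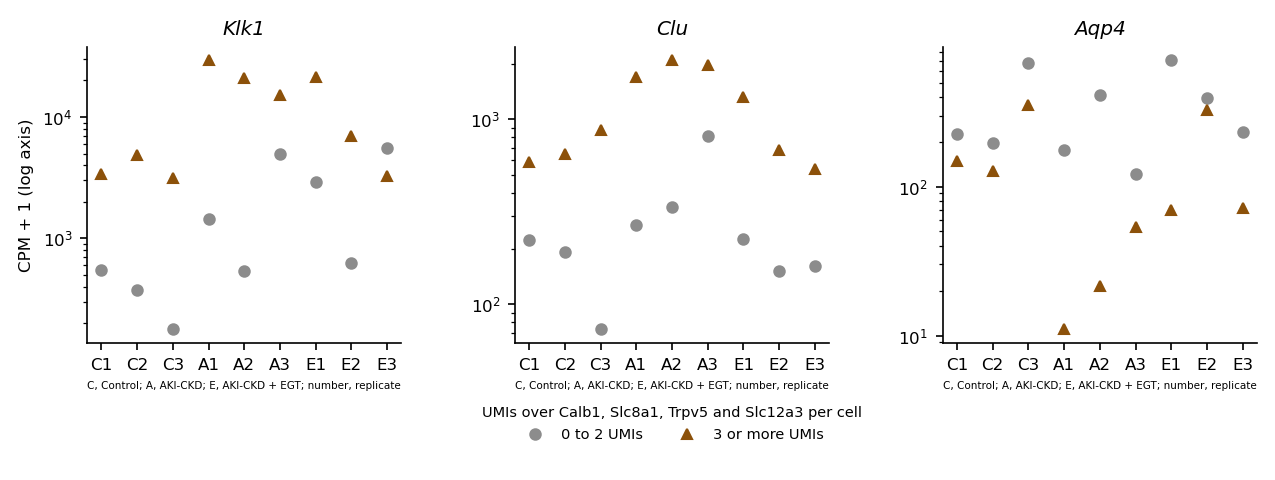
CPM + 1 on a log axis of Klk1, Clu and Aqp4 per mouse, in principal cells with 0 to 2 (circles) and 3 or more (triangles) UMIs over Calb1, Slc8a1, Trpv5 and Slc12a3. Clu stands above in the second class in every mouse and Aqp4 below, and within both classes the 3 AKI-CKD mice exceed the 3 Control mice for Clu, at 266 to 814 against 72.0 to 222 CPM in the first class.

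Of the 8 further genes with the smallest p in this comparison, none passed the threshold (edgeR adjusted p = 0.0694 for Emx1 and 0.0761 for the others). Emx1, a homeobox transcription factor, was at 38.2, 57.7 and 55.5 CPM in Control against 174, 136 and 109 CPM in AKI-CKD, with a log2 fold change of 1.48 and an SE of 0.28. Pgam2, a glycolytic phosphoglycerate mutase, had a log2 fold change of 1.55 and Kng2, a kininogen from which kallikreins release kinins, of 1.20. Over 23 alternatives the value of Kng2 lay between 0.39 and 1.34. In Control, Pgam2 had a mean of 136 CPM in cells with 0 to 2 connecting tubule UMIs and 627 CPM in cells with 3 or more, and Emx1 of 20.4 and 108 CPM. Within these classes the log2 fold change was 1.40 and 1.13 for Pgam2 and 1.29 and 1.02 for Emx1. The other 5 had negative values, -1.26 for Nedd4l, -1.41 for Ghr, the growth hormone receptor, -1.44 for Efna5, an ephrin ligand, -1.55 for Myo9a and -2.05 for Paxbp1. Ghr was at 253 to 283 CPM in the other kept cells of Control, where its log2 fold change was -0.64. Nedd4l, the ubiquitin ligase that withdraws ENaC from the membrane, was at 813, 414 and 785 CPM in Control mice, 296, 288 and 249 CPM in AKI-CKD and 335, 528 and 516 CPM in AKI-CKD + EGT. It passed the threshold in the cells outside the proximal tubule gate, with a log2 fold change of -1.69 (edgeR adjusted p = 0.0342), where 8 genes were called, 2 higher and 6 lower, Klk1 among them and Clu not.

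**Figure D3:**
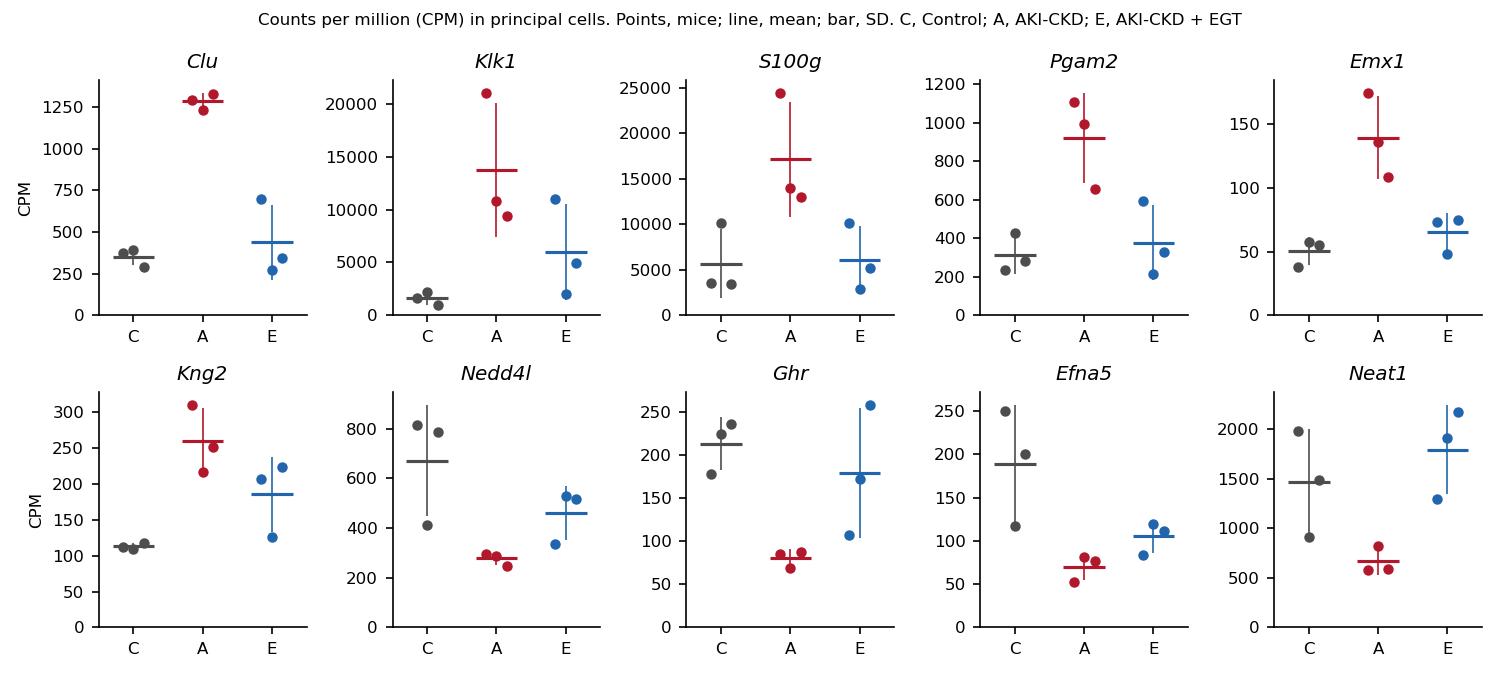
CPM in principal cells of 10 genes in Control (C), AKI-CKD (A) and AKI-CKD + EGT (E), with a point per mouse, the mean as a line and the SD as a bar. Clu and Klk1 are the 2 genes that passed the adjusted threshold in AKI-CKD against Control. Pgam2, Emx1, Kng2, Nedd4l, Ghr and Efna5 were among the next smallest p, so that a gap between these groups is part of how they were chosen. Neat1 was among the 10 genes of smallest p in AKI-CKD + EGT against AKI-CKD. S100g was singled out because its change differed from that in the other kept cells.

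The genes that carry out the transport work of principal cells were grouped by role. Of 24 genes of water transport and vasopressin signalling, 18 were tested, of which 1 was higher and 3 were lower at an unadjusted p under 0.05, with a median log2 fold change of -0.01 beside -0.02 over all genes tested. Avpr2 was at 253, 239 and 270 CPM in Control mice, 242, 292 and 231 CPM in AKI-CKD and 400, 215 and 216 CPM in AKI-CKD + EGT, with a log2 fold change of AKI-CKD against Control of 0.01 and an SE of 0.25. Its groups overlapped throughout. Aqp2 itself, a gene of the rule, ranged from 5837 to 9923 CPM of all UMIs in Control and from 6445 to 10017 CPM in AKI-CKD.

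The 3 lower genes were Aqp4, Ptger1 and Pde4d. Aqp4 was at 214, 187 and 551 CPM in Control mice, 76.6, 230 and 102 CPM in AKI-CKD and 459, 389 and 177 CPM in AKI-CKD + EGT, so that AKI-CKD 2 overlapped Control. Its log2 fold change was -1.20 with an SE of 0.42 (edgeR adjusted p = 0.278), and from -3.14 to -0.55 over 23 alternatives. Among cells with 0 to 2 connecting tubule UMIs its mean was 365 ± 267 CPM (SD, n = 3) in Control and 236 ± 156 CPM in AKI-CKD, and among cells with 3 or more 209 ± 126 CPM and 27.7 ± 22.2 CPM. Ptger1 did not overlap, at 261, 242 and 326 CPM in Control against 132, 213 and 123 CPM in AKI-CKD, with a log2 fold change of -0.81. Pde4d, a phosphodiesterase that breaks down cAMP, had -0.85, and Prkar1a, a regulatory subunit of the cAMP-dependent kinase, was the higher gene with 0.55. Their edgeR adjusted p-values lay between 0.200 and 0.355.

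Of 22 genes of sodium and potassium transport, 20 were tested, with 1 higher and 1 lower at an unadjusted p under 0.05 and a median log2 fold change of -0.05. The lower gene was Nedd4l. The higher was Kcne1, a potassium channel subunit, at 189, 237 and 290 CPM in Control mice, 498, 582 and 343 CPM in AKI-CKD and 440, 139 and 314 CPM in AKI-CKD + EGT, with a log2 fold change of 1.00 (edgeR adjusted p = 0.232). The ENaC subunits had log2 fold changes of 0.32 for Scnn1a, 0.11 for Scnn1b and -0.27 for Scnn1g, each with an SE of 0.23 to 0.27, and Kcnj1 had -0.12. All 4 overlapped between the groups.

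Of the 13 genes of the aldosterone response, all tested, none was higher and 2 were lower at an unadjusted p under 0.05, with a median of -0.30 that was 0.04 without Control 1, 0.03 with at least 8 summed UMIs or with 3 or more connecting tubule UMIs, and 0.18 without the cells of the proximal tubule gate. These were Nr3c2, at 384, 306 and 543 CPM in Control against 221, 259 and 378 CPM in AKI-CKD, and Fkbp5, a cochaperone of steroid receptors. In all other kept cells Nr3c2 had a log2 fold change of -0.57. In principal cells it had -0.54 with an SE of 0.25, and AKI-CKD 3 lay within Control. Hsd11b2 (0.18) and Sgk1 (0.26), the kinase that aldosterone induces, had smaller values than their SEs of 0.28 and 0.29.

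**Figure D4:**
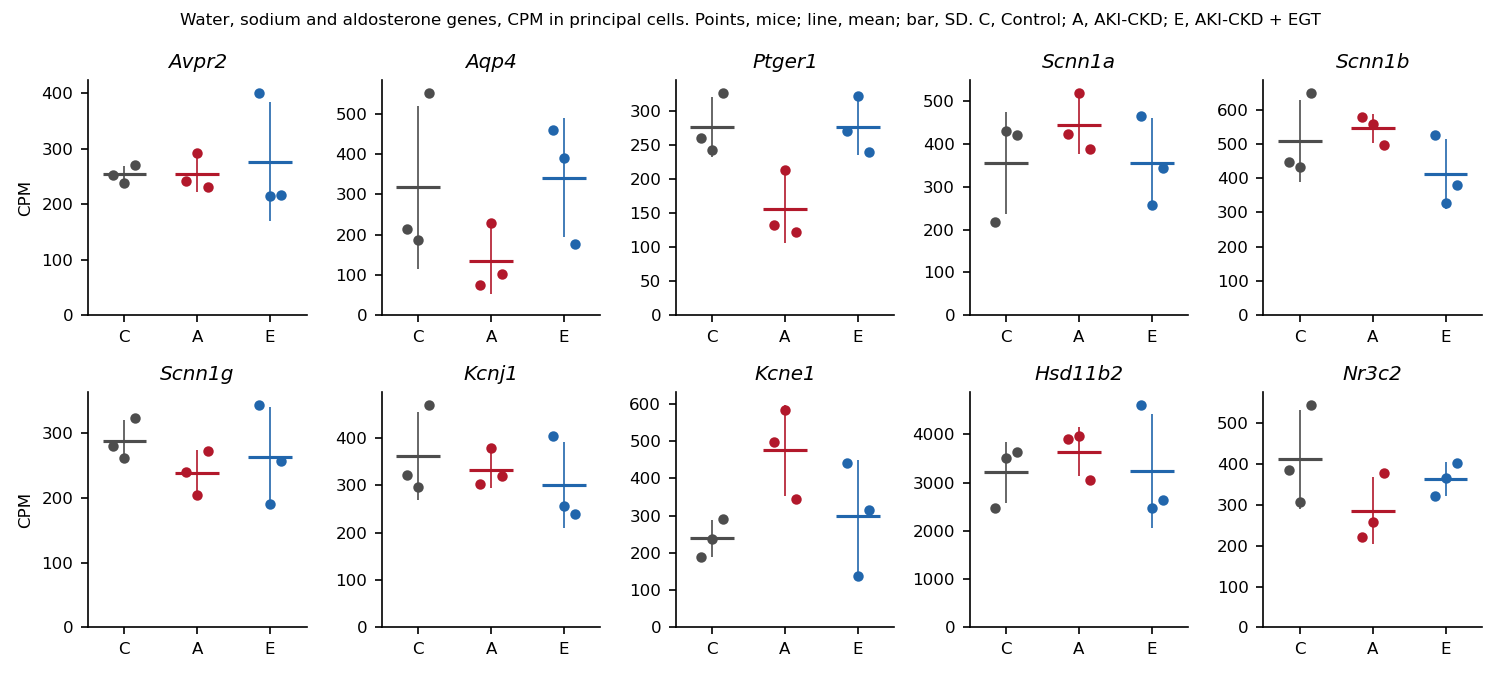
CPM in principal cells of 10 genes of water, sodium, potassium and aldosterone handling, with a point per mouse, the mean as a line and the SD as a bar. Avpr2, Scnn1a, Scnn1b, Scnn1g, Kcnj1 and Hsd11b2 overlap between Control (C) and AKI-CKD (A), whereas Ptger1 is lower and Kcne1 higher in all 3 AKI-CKD mice than in Control.

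Of 18 transcription factors of collecting duct identity, 17 were tested and 1 was higher and 1 lower at an unadjusted p under 0.05. The median was 0.06, and below 0 in 6 of the alternatives, among them -0.14 without AKI-CKD 2, -0.01 without Control 1, -0.03 without Control 2, -0.27 outside the proximal tubule gate and -0.23 with 3 or more connecting tubule UMIs. Gata3 was at 202, 223 and 280 CPM in Control against 228, 242 and 231 CPM in AKI-CKD, a log2 fold change of -0.00 with an SE of 0.22. Mecom was the lower gene, at 993, 602 and 944 CPM against 353, 480 and 543 CPM, with a log2 fold change of -0.89 (edgeR adjusted p = 0.190), and Hoxd9 the higher with 0.61. Tfcp2l1, which principal and intercalated cells share, was at 715, 708 and 804 CPM against 952, 1024 and 820 CPM. In all other kept cells the log2 fold change was -0.80 for Mecom and 0.17 for Hoxd9.

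Of 30 p53 targets, 14 were tested and 5 were higher at an unadjusted p under 0.05 and none lower, with a median of 0.26. Cdkn1a, which encodes the cell cycle inhibitor p21, was at 8.49, 40.4 and 9.66 CPM in Control mice, 34.8, 115 and 179 CPM in AKI-CKD and 39.8, 41.0 and 65.1 CPM in AKI-CKD + EGT. A UMI of Cdkn1a was held by 83 of the 1277 principal cells and by 6.91% of the proximal tubule gate, or 2.90 and 3.03% after thinning, and the levels over all mice were 50.4 and 49.1 CPM. The share was thus not above that of the proximal tubule gate. AKI-CKD 1 lay within Control, and the log2 fold change was 2.33 with an SE of 0.53 (edgeR adjusted p = 0.123). Cdkn1a was called in the fit without AKI-CKD 1, at 2.82 (edgeR adjusted p = 0.0262), and without AKI-CKD 3 the median of the list was -0.01. The other 4 were Btg2 (1.04), an antiproliferative factor, Ddit4l (1.43), Ccng1 (0.90) and Bax (0.83), which promotes apoptosis. For these 4 no AKI-CKD mouse overlapped Control, which follows in part from choosing them by p. Of all genes tested, 9.11% were higher in AKI-CKD without overlap. The value of Ddit4l went from 0.51 to 2.07 over 23 alternatives. In all other kept cells Cdkn1a had a log2 fold change of 2.12, Bax of 0.62, Ccng1 of 0.90, Btg2 of 0.39 and Ddit4l of 0.52.

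Of 26 tubule injury genes, 14 were tested and 4 were higher, Clu among them, and 1 lower at an unadjusted p under 0.05, with a median of 0.15. Spp1, osteopontin, was at 919, 717 and 348 CPM in Control mice, 1384, 1394 and 1548 CPM in AKI-CKD and 1016, 426 and 770 CPM in AKI-CKD + EGT, a log2 fold change of 1.12 for AKI-CKD against Control (edgeR adjusted p = 0.197). Wfdc2, a secreted protease inhibitor, had 0.79 and Pcolce, an enhancer of collagen processing, 0.85. Anxa1, an anti-inflammatory annexin, was the lower gene, at 76.4, 84.6 and 29.0 CPM in Control against 17.4, 25.0 and 3.50 CPM in AKI-CKD. Cst3, Malat1 and Cyp4b1 are named in the study for distal cells of these samples, and Wfdc2, Clu and Pcolce had been picked from earlier results of the same data, so that these genes are not an independent choice. Of these 6, 3 were higher and 1 lower at an unadjusted p under 0.05, with a median of 0.60.

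Lists of general cell work were described in the same way, and none of their genes passed the adjusted threshold of edgeR's quasi-likelihood test. All 79 ribosomal protein genes were tested, 37 were higher and none lower at an unadjusted p under 0.05, and the median was 0.48, with 78 above 0. Of the 75 nuclear genes of oxidative phosphorylation tested, 13 were higher and none lower, with a median of 0.36 and 74 above 0. Beside them, Malat1 and Neat1, RNAs kept in the nucleus, had log2 fold changes of -0.62 and -0.88 in all other kept cells. In principal cells these were -1.01 and -1.13. Malat1 was at 16050, 13820 and 20618 CPM in Control mice, 9470, 8640 and 6891 CPM in AKI-CKD and 11520, 13396 and 21989 CPM in AKI-CKD + EGT, without overlap between AKI-CKD and either other group. Beside these, 5 of 20 proximal tubule markers were lower and none higher, with a median of -0.44. The ribosomal protein list was added after its values had been seen, and the genes of such lists vary together, so that their number is not a number of independent findings.

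The 13 mitochondrially encoded genes, which the 15% limit of the rule concerns, summed to 70090, 45199 and 12379 CPM in Control mice, 28379, 21202 and 19579 CPM in AKI-CKD and 27009, 44290 and 67700 CPM in AKI-CKD + EGT. Control mice alone differed by more than the groups did. Their median log2 fold change was -0.92 in AKI-CKD against Control over the 12 genes that passed the filter, while the nuclear oxidative phosphorylation genes had the opposite sign. The part that the mitochondrial share or proximal tubule RNA had in these lists was not tested.

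At an unadjusted p under 0.05, 5.17% of all genes tested were higher and 7.07% lower, and the following counts use that threshold. No gene of these lists passed the adjusted threshold of edgeR's quasi-likelihood test. Of 26 antioxidant and metal genes, 25 were tested and 2 were higher, the metallothioneins Mt1 (0.87) and Mt2 (0.63), and 1 lower, Nqo1 (-1.09). The median was 0.07, and below 0 in 5 alternatives, -0.17 without Control 3 and -0.04 with at least 3 summed UMIs or outside the proximal tubule gate among them. Of 12 transporters of cisplatin and ergothioneine, 10 were tested and none passed an unadjusted p under 0.05 in either direction. Of 22 immediate early and dissociation genes, 1 was higher, Ier2, with a median of 0.38 over the 22. The epithelial junction and keratin list (15 tested) had 1 higher gene, Krt7 (0.59), and 3 lower, with Epcam (-0.64) and Cgn (-1.25) among the lower. The Notch, osmotic and endothelin lists had 0 to 1 gene in each direction over 7, 10 and 8 tested, and of 9 interferon-stimulated genes none passed.

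**Figure D5:**
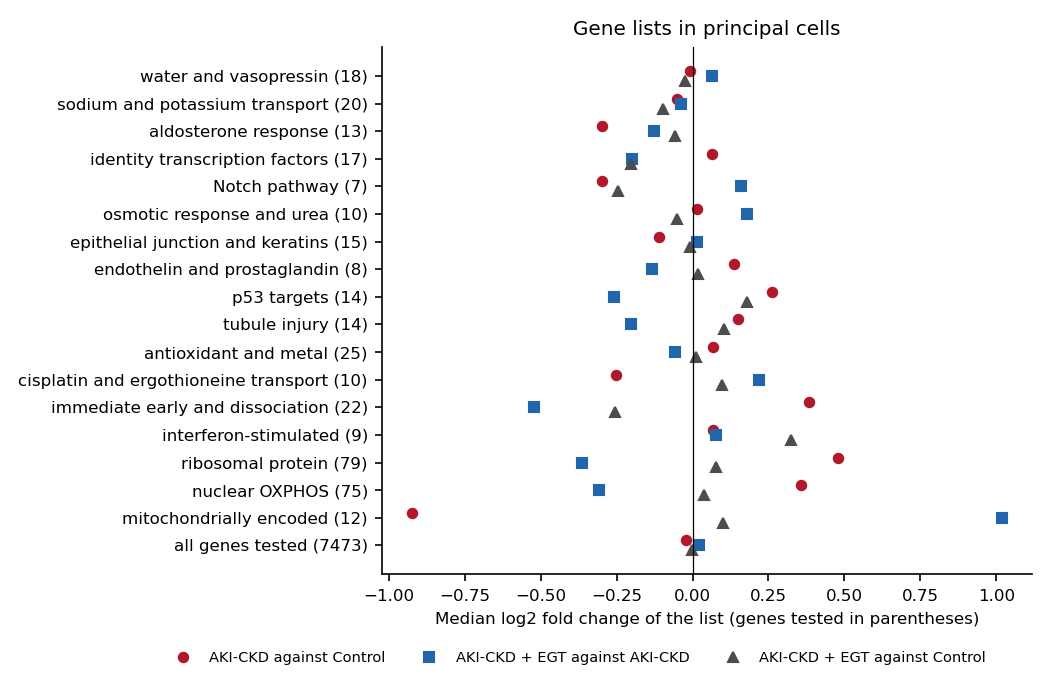
Median log2 fold change of each gene list in principal cells for the 3 comparisons, with the number of genes tested in parentheses and all 7473 tested genes in the last line. In AKI-CKD against Control the mitochondrially encoded list lies at -0.92, the ribosomal protein list at 0.48 and the nuclear oxidative phosphorylation (OXPHOS) list at 0.36, while the water list lies at -0.01 and the sodium and potassium list at -0.05.

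To see what EGT treatment left different in the injured kidney, AKI-CKD + EGT was compared with AKI-CKD. This comparison shares the AKI-CKD mice with the former, so that values of opposite sign in the 2 are not independent. No gene passed the adjusted threshold of edgeR's quasi-likelihood test (0.0%), with 843 genes (11.3%) at an unadjusted p under 0.05, 461 higher (6.17%) and 382 lower (5.11%). The groups did not overlap for 1311 genes (17.5%), 620 higher (8.3%) and 691 lower with EGT (9.25%). DESeq2 called 5 genes on the same sums: Clu, Phlda1, Neat1, Plet1 and Ppp1r1a. The edgeR test also called 17 genes without AKI-CKD + EGT 1, 8 higher and 9 lower, and 52 in cells outside the proximal tubule gate, 47 higher and 5 lower.

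Clu had the smallest p, with a log2 fold change of -1.56 and an SE of 0.28 (edgeR adjusted p = 0.115, DESeq2 adjusted p = 0.00120). None of the 3 EGT-treated mice reached the lowest AKI-CKD mouse. Klk1 had -1.20 (edgeR adjusted p = 0.347), with AKI-CKD + EGT 1 inside the AKI-CKD range, and 0.38 among cells with 0 to 2 connecting tubule UMIs. In AKI-CKD + EGT 3, 1 cell of that class held 1070 of the 1499 Klk1 UMIs of the class, and the whole mouse held 2134. Neat1 had a log2 fold change of 1.12 in all other kept cells. In principal cells it was at 583, 824 and 592 CPM in AKI-CKD and at 1292, 1909 and 2167 CPM with EGT, a log2 fold change of 1.42 (edgeR adjusted p = 0.115, DESeq2 adjusted p = 0.00339). Phlda1 had -1.55, and Agrn, which encodes the basement membrane proteoglycan agrin, was at 47.0, 70.9 and 28.0 CPM against 134, 132 and 116 CPM, a value of 1.33. Slc22a28 (1.94), a transporter of the organic anion family that lay at 58.5 to 94.0 CPM in the other kept cells, Ppp1r1a (2.02), which is also among the thick ascending limb markers, Rora (1.15), Plet1 (1.77) and Mtus1 (1.70) complete the 10 genes of smallest p with Tfap2b.

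Tfap2b, a transcription factor of the distal nephron, was at 216, 173 and 175 CPM in AKI-CKD and 107, 62.9 and 90.7 CPM with EGT, below also the 119 to 169 CPM of Control, with a log2 fold change of -1.14 against AKI-CKD (edgeR adjusted p = 0.162). Of the 17 identity factors tested, 5 were lower at an unadjusted p under 0.05 and none higher, with a median of -0.20 beside 0.02 over all genes. Besides Tfap2b these were Hoxd9 (-1.16), Hoxd8 (-1.02), Gata2 (-0.53) and Tfcp2l1 (-0.53). Tfcp2l1 with EGT stood at 721, 534 and 684 CPM, below all AKI-CKD mice and overlapping Control. Gata3 had -0.20 and did not separate the groups. The median of the list was 0.03 without AKI-CKD 2 and 0.02 without AKI-CKD + EGT 3.

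Among water genes, Ptger1 stood at 270, 322 and 239 CPM with EGT, above every AKI-CKD mouse, a log2 fold change of 0.82, and Aqp4 had 1.32 with AKI-CKD + EGT 3 overlapping AKI-CKD (edgeR adjusted p = 0.225 and 0.269). Of 18 genes, 3 were higher and 1 lower at an unadjusted p under 0.05, with a median of 0.06 that was -0.05 without AKI-CKD + EGT 1. The sodium and potassium list had 1 higher, Nedd4l (0.72), and 1 lower, Kcne1 (-0.69), of 20, with a median of -0.04 that was 0.12 with 3 or more connecting tubule UMIs, 0.01 without AKI-CKD 1 and 0.00 without AKI-CKD + EGT 2. Of the 13 aldosterone genes none passed in either direction.

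Of the p53 targets, 5 of 14 were lower and 1 higher at an unadjusted p under 0.05, with a median of -0.26. Cdkn1a had -1.11 (edgeR adjusted p = 0.389), with AKI-CKD 1 below all EGT-treated mice. Ephx1, an epoxide hydrolase and the higher gene, was at 59.2, 89.7 and 87.6 CPM in AKI-CKD and at 174, 165 and 112 CPM with EGT, a log2 fold change of 0.96. Of the 14 tubule injury genes, 4 were lower and 2 higher, the last being Anxa1 (1.65) and S100a6 (1.91, and 0.51 without cells that held a UMI of Slc14a2), with a median of -0.20 that was 0.13 without AKI-CKD + EGT 1 and 0.22 without the cells of the proximal tubule gate. The ribosomal protein list had 22 of 79 lower and none higher, with a median of -0.36, and the nuclear oxidative phosphorylation list 14 of 75 lower and none higher, with a median of -0.31. The immediate early list had 6 of 22 lower, Fos (-1.11) among them, and none higher, with a median of -0.52. Of the 20 proximal tubule markers, 5 were higher and none lower, with a median of 0.36. Mitochondrially encoded genes had a median of 1.02, beside the mitochondrial shares given above, which did not overlap between these 2 groups. Their summed levels did overlap, with 28379 CPM in AKI-CKD 1 and 27009 CPM in AKI-CKD + EGT 1. Over all kept cells the median mitochondrial share was 2.82, 2.31 and 1.67% in AKI-CKD and 3.35, 4.87 and 7.64% with EGT, so that the gap was not particular to principal cells.

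AKI-CKD + EGT against Control, the comparison of treated injured with uninjured kidneys, had 0 genes called by edgeR (0.0%) and 0 by DESeq2, with 355 genes (4.75%) at an unadjusted p under 0.05, 165 higher (2.21%) and 190 lower (2.54%). The groups did not overlap for 684 genes (9.15%), 340 higher (4.55%) and 344 lower (4.6%). The 10 genes with the smallest p all had an edgeR adjusted p of 0.813. Klk1 was among them with a log2 fold change of 1.89 and an SE of 0.46, at 10948, 2048 and 4962 CPM against 1002 to 2191 CPM, and AKI-CKD + EGT 2 overlapped Control. Of the 2134 Klk1 UMIs of AKI-CKD + EGT 3, 1 cell held 1070. The others were Zfhx2 (-2.31), Ppp2r2b (-1.56), Akap17b (-1.44), Arvcf (1.55), C430014B12Rik (1.29), Gm21974 (1.19), Ranbp3l (1.04), Cpn1 (1.26) and Elovl5 (1.86). Clu had 0.30 with an SE of 0.28, Nedd4l -0.54 and Cdkn1a 1.23, the last from 0.24 to 3.43 over 23 alternatives. Among the lists of function the median farthest from 0 was 0.33, that of the interferon-stimulated list, beside -0.00 over all genes. At an unadjusted p under 0.05 the p53 list had 2 higher genes of 14, Ephx1 (1.01) and Cdkn1a. The identity factors had 2 lower of 17, Tfap2b (-0.74) and Mecom (-0.62).

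Simulated sums showed what 3 against 3 could detect at the depth of these mice. The spread was set to the same fixed value for all genes and was not estimated from these mice. For AKI-CKD against Control, 152 of 200 genes changed by 2 on the log2 scale were recovered and 3 of 200 changed by 1. These were taken over 7509 and 7614 genes, with 12 and 0 false calls. At that assumed spread, a change of 1 was mostly not detectable with this depth and number of mice. A gene that missed the threshold was not shown to be equal between the groups.

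To ask whether the changes differed from those of the rest of the kidney, principal cells were set against all other kept cells of the same mice in a model with an interaction term, over 18471 genes. By edgeR's quasi-likelihood test, 22 genes differed in AKI-CKD against Control (0.119%), 10 with a higher change in principal cells (0.0541%) and 12 with a lower (0.065%). With EGT against AKI-CKD 115 differed (0.623%), 46 higher (0.249%) and 69 lower (0.374%), and with EGT against Control 39 (0.211%), 6 higher (0.0325%) and 33 lower (0.179%). Limma on each mouse's own difference between the 2 cell classes called none of 7473 genes in any comparison, with 435, 809 and 457 at an unadjusted p under 0.05 and a smallest adjusted p of 0.0729, 0.0528 and 0.794. Klk1 led the first comparison, with 13719 against 1613 CPM in principal cells and 2386 against 1480 CPM in the other cells, a difference of 2.47 between the log2 fold changes (edgeR adjusted p = 3.26e-13, limma adjusted p = 0.0729). Clu had a difference of 1.37 in the first comparison and of -1.77 in the second (limma adjusted p = 0.316 and 0.0528). Limma tested 16 of the 22, 105 of the 115 and 28 of the 39 genes called by edgeR, and of these 16, 105 and 26 had an unadjusted limma p under 0.05 while none passed after adjustment.

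Last, a small class of cells that passed the principal cell rule came from 2 of the EGT-treated mice. Slc14a2, the urea transporter of the inner medullary collecting duct, had 191 UMIs in 9 cells of AKI-CKD + EGT 1 and 126 UMIs in 12 cells of AKI-CKD + EGT 2. AKI-CKD + EGT 3 and Control 2 each had 1 cell with such UMIs, and the other 5 mice had 0 of 68 to 174 cells, which allows a share of cells with a UMI of up to 1.72 to 4.41% and sets no limit on cells that express the gene without a captured UMI. Over all principal cells 1.80% held a UMI, and 1.41% after thinning, against 0.268% and 0.0887% in the proximal tubule gate.

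The 18 cells with 3 or more Slc14a2 UMIs, 9 from each of these 2 mice, were compared with the 308 cells of the same mice that held none, as a description without a test, since the class was noticed in these data. Aqp2 was at 21162 against 10654 CPM and Aqp4 at 2255 against 286 CPM. Akr1b1, the aldose reductase that makes sorbitol under osmotic load, was at 941 against 68.3 CPM, Cryab, a small heat shock protein that is also in the thin limb list, at 2725 against 328 CPM, S100a6 at 941 against 28.8 CPM and Plet1 at 2683 against 182 CPM. Hsd11b2, Scnn1g and Kcnj1 went the other way, at 96.8 against 3475 CPM, 13.8 against 263 CPM and 13.8 against 330 CPM, and Scnn1b had no UMI in these 18 cells. Of the genes on which the label was checked, Hsd11b2 and Scnn1g thus did not bear it out for these cells. Avpr2 was at 373 against 280 CPM and Gata3 at 387 against 167 CPM. The name principal cell is here that of the rule. The rest of the sodium, potassium and aldosterone lists was not counted in these cells. Without all cells that held a Slc14a2 UMI, the log2 fold change of AKI-CKD + EGT against AKI-CKD went from 1.77 to 1.01 for Plet1, from 1.91 to 0.51 for S100a6 and from 1.32 to 0.88 for Aqp4. The counts of called genes were 2, 0 and 0 in the 3 comparisons without these cells.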

How the data were processed

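Single-cell RNA-seq libraries of 9 mice, 1 per mouse, were made from a longitudinal portion of the kidney on the DNBelab C-TaiM4 droplet system. The authors deposited UMI counts per gene and cell, made with PISA 1.0 and labelled GRCm39, with no normalization. No doublet caller was run, and the 196925 cells kept of 216680 barcodes differ in number from those the study's methods retain. Cell names are running numbers within a library, so shared names carry no information.

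Counts were summed per mouse over the principal cells and tested with edgeR 4.0.16 (R 4.3.3) by the quasi-likelihood test over 9 mice with group as the term, TMM scaling, filterByExpr and Benjamini-Hochberg adjustment over 7473 genes, with a call at an adjusted p under 0.05. The 13 genes of the cell rule were not tested, and neither they nor mitochondrially encoded genes support a result. Values per mouse in the comparisons are CPM of TMM-scaled sums, whereas levels by cell class, by connecting tubule UMIs and by Slc14a2 are CPM of all UMIs. The p-values measure the spread between mice. The connecting tubule gate needed 3 UMIs over Calb1, Slc8a1 and Trpv5, and the proximal tubule gate 5 UMIs over Slc34a1, Lrp2, Slc27a2 and Miox, each with limits on other cell types. The interaction model held the mouse as a block, and limma 3.58.1 was run on each mouse's difference.

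Members and lists were chosen with earlier results of these data known. Named were genes of the lists, the 20 leading genes, and per comparison the 10 genes with the smallest p at an average log2 CPM of 4 or more, since fewer than 10 were called. Others are named where they were singled out after their values were seen. Alternatives were DESeq2 1.42.0, other scalings, filters, cell rules, a replicate block and leaving out each mouse. Subsets by connecting tubule UMIs, by the proximal tubule gate and by Slc14a2, and limma, were added after seeing the data. Intervals and limits for a count of 0 (3 counts) cover counting error only. The test was checked on simulated data. Python 3.11.15 was used with numpy 2.4.6, scipy 1.17.1 and pandas 2.3.3.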

Additional observations from a re-analysis of the deposited data

Results flagged for a closer look

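The following genes were singled out because their change in principal cells differed from that in all other kept cells of the same mice by edgeR's quasi-likelihood test of the interaction (adjusted p under 0.05). None of those that limma tested on the mice's own differences was past the threshold there. The value given is the log2 fold change in principal cells minus that in the other cells.

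In AKI-CKD against Control, the difference was 2.47 for Klk1, 1.89 for Cish, 1.60 for Pgam2, 1.40 for Emx1 and 1.37 for Clu. Klk1, Pgam2, Emx1 and Clu had higher means in AKI-CKD than in Control in principal cells. Cish, a suppressor of cytokine signalling, differed because it was at 6.66 CPM against 33.9 CPM in the other cells and at 41.6 against 58.3 CPM in principal cells. The difference was -2.37 for Enpep, -2.13 for Pde7a, -1.70 for Ephx1 and -1.19 for Gm53. Ephx1 was at 78.8 against 76.0 CPM in principal cells and at 17.3 against 4.88 CPM in the other cells.

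With EGT compared to AKI-CKD alone, the difference was 3.52 for Sfrp1, 3.29 for Pcdh7, 3.26 for Ugt2b37, 2.29 for Afap1l1 and 1.78 for Slc22a28. The first 4 rest on 2, 6, 3 and 6 UMIs in the principal cells of AKI-CKD, and limma gave 1.80 for Ugt2b37 and 1.62 for Afap1l1. Slc22a28 lay at 58.5 to 94.0 CPM in the other kept cells. Pcdh7 stood at 498 CPM in the 18 cells with 3 or more Slc14a2 UMIs against 15.3 CPM in the cells of the same mice with none. The difference was -2.06 for Pgam2, -1.82 for S100g, -1.79 for Cacnb4, -1.77 for Clu and -1.73 for Phlda1. S100g, a calcium-binding protein of the connecting tubule, was at 6088 against 17134 CPM in principal cells and at 1271 against 1182 CPM in the other cells.

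In AKI-CKD + EGT against Control, the difference was 10.58 for Cd52, which had no UMI in the principal cells of Control and 22 in those of AKI-CKD + EGT, so that the fitted value depends on the prior count and is no bound. It was -3.01 for Acta2, -1.57 for Crip1, -1.47 for Cacnb4, -1.42 for Erbb4 and -1.39 for Stox2. Sfrp1, Pcdh7, Cd52 and Acta2 did not pass the filter in principal cells and were not tested by limma.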

How the results depend on the processing

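Called genes are given in the order AKI-CKD against Control, AKI-CKD + EGT against AKI-CKD and AKI-CKD + EGT against Control, beside 2, 0 and 0. Other scalings left these counts as they were. DESeq2 called 20, 5 and 0 genes and the fit without a filter on low counts 127, 103 and 23, of which 29 were higher and 98 lower in the first comparison. Without the cells of the proximal tubule gate there were 8, 52 and 1. In the first comparison, the 6 mice alone gave 4, a minimum of 3 summed UMIs gave 5, and cells with at most 2 connecting tubule UMIs gave 0. Leaving out 1 mouse gave 0 to 50, 0 to 17 and 0 to 2, with 0 without Control 1 or Control 3, 50 without Control 2 (13 higher, 37 lower), 4 without AKI-CKD 3 and 6 without AKI-CKD + EGT 1 in the first comparison, 17 without AKI-CKD + EGT 1 and 5 without AKI-CKD + EGT 3 in the second, and 2 without AKI-CKD + EGT 3 in the last. The cause was not tested.

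For the interaction, beside 22, 115 and 39, no filter gave 12, 66 and 19, limma gave 0, 0 and 0, and RLE size factors gave 67 for AKI-CKD + EGT against Control. Leaving out 1 mouse gave 10 to 42, 38 to 227 and 9 to 70.

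Differences of mean shares, in percentage points of kept cells, were -0.00347, 0.262 and 0.259. Outside the proximal tubule gate they were 1.41, -1.54 and -0.123, and with a minimum of 3 summed UMIs those of AKI-CKD + EGT against AKI-CKD and against Control were 0.499 and 0.437. Leaving out 1 mouse gave -0.0931 to 0.137, 0.122 to 0.352 and 0.216 to 0.301.

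Clu and Klk1 kept their direction in AKI-CKD against Control in all 23 alternatives and passed in 19 and 18, with edgeR or DESeq2 adjusted p-values of 5.13e-09 to 0.320 and 3.01e-20 to 0.320. Klk1 in AKI-CKD + EGT against AKI-CKD (0.38 with at most 2 connecting tubule UMIs) and Ranbp3l in AKI-CKD + EGT against Control (-0.25 with 3 or more) turned in sign, neither past the threshold, and named values with an unadjusted p above 0.05 also changed sign in some settings. Phlda1 also turned in AKI-CKD against Control (0.73, lowest -0.33) and in AKI-CKD + EGT against Control (-0.83, highest 0.07).

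With the replicate number as a block, 2, 0 and 0 genes were called. Same-numbered mice did not deviate together, with correlations of -0.18 to 0.088 over 9 pairs, beside -0.15 to 0.16 over 18 pairs of unlike number. The labels do not say whether the numbers pair the mice, and correlations from so few cells per mouse cannot settle it. Depth was not varied apart from the number of mice.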
